A study of Homo sapiens with 9 samples.

Results

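The mRNA of 22411 genes was compared between MDA-MB-231 cells in which *IGFBP6* was stably knocked down and control cells of the same line. The genes are those of the 23781 transcript clusters with a single gene symbol, out of 67528 transcript clusters on the array, and no gene was chosen by its values. Total RNA was hybridised to Human Transcriptome Array 2.0 chips of Affymetrix, and the comparison rests on 6 of the 9 arrays of the series, 3 for the knockdown of *IGFBP6* and 3 for the control. The other 3 arrays, of cells with a knockdown of the *ELOVL5* gene, entered the estimate of the spread.

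MDA-MB-231 is an established line of triple-negative breast cancer with mesenchymal features. Both groups carried the same lentiviral shRNA vector, integrated into the genome and selected with an antibiotic. The shRNA was directed to *IGFBP6* in one culture and to the luciferase of the firefly *Photinus pyralis*, which human cells lack, in the control culture (LUC). Each group was 1 stable culture, from which RNA was obtained independently 3 times, so that p-values reflect how RNA samples of one culture vary. An effect of the lower *IGFBP6* level, an effect of the shRNA on other transcripts and a difference that arose between the cultures during selection and growth cannot be told apart in this design.

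IGFBP6 belongs to a family of secreted proteins that bind insulin-like growth factors (IGF) and keep them from the IGF1 receptor. It is known for its preference for IGF2 over IGF1, and IGF signalling drives growth and survival of many cell types, breast epithelium among them. Since these proteins act outside the cell, a lower level can change the signals that the same cells receive.

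The target itself was lower in every knockdown array. The log2 intensity of *IGFBP6* mRNA (transcript cluster TC12000428.hg.1) was 5.65, 5.30 and 5.56 in the knockdown arrays and 6.13, 6.21 and 6.03 in the control arrays. The groups did not overlap. The log2 fold change was -0.62 with a standard error of 0.10 (adjusted p = 0.00183), a fall of 1.54 times, where a gene was called changed at an adjusted p under 0.05 from limma and a change of at least 1.5 times. Without knockdown replicate 2 (-0.52) or control replicate 2 (-0.58) the fall was below 1.5 times. These levels lie close to 5.02, the median over all arrays, where background compresses a fold. *ELOVL5* mRNA was 0.39 above the control on the log2 scale (adjusted p = 0.0412) and was not called.

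Of the other genes of the IGF axis, the binding protein genes *IGFBP4* and *IGFBP7* and the insulin receptor gene *INSR* fell. *IGFBP4* mRNA was at 10.21, 10.55 and 10.28 in the knockdown and at 12.94, 13.03 and 12.35 in the control, a log2 fold change of -2.43 ± 0.17 (SE, adjusted p = 5.01e-06). *IGFBP7* went from 15.34 ± 0.06 to 14.24 ± 0.14 (SD, n = 3), and *INSR* from 6.69 ± 0.26 to 5.38 ± 0.07 (SD, n = 3). No array of the knockdown reached a control array for these genes. The receptor gene *IGF1R* was not called (log2 fold change -0.33, adjusted p = 0.227), nor were *IGFBP1* (-0.30, adjusted p = 0.319) and *IGFBP3* (-0.31, adjusted p = 0.111). Of 22 measured members of the axis, 1 was called higher and 5 lower, *IGFBP6* among the latter, beside 7.82% higher and 8.5% lower over all 22411 genes.

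Over the whole array, 1753 genes were called higher and 1905 lower in the knockdown, together 16.3% of the genes tested. Of the 10839 genes with a mean log2 intensity of at least 6, taken here as expressed, 29.5% were called, 13.6% higher and 15.9% lower. Among the 11572 dimmer genes the share was 3.98%. By 4 times or more, 155 genes rose and 150 fell, and by 10 times or more 47 rose and 33 fell. The knockdown arrays lay entirely on one side of the control arrays for 8462 genes (37.8%), and for 3634 of the 3658 called genes. Arrays without overlap therefore add little to a call, here and below. In RNA of a whole culture, fewer cells with a transcript and less of it per cell cannot be told apart. Against the arrays of the *ELOVL5* knockdown, 1456 genes were higher (6.5%) and 1489 lower (6.64%), together 13.1%.

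**Figure D1:**
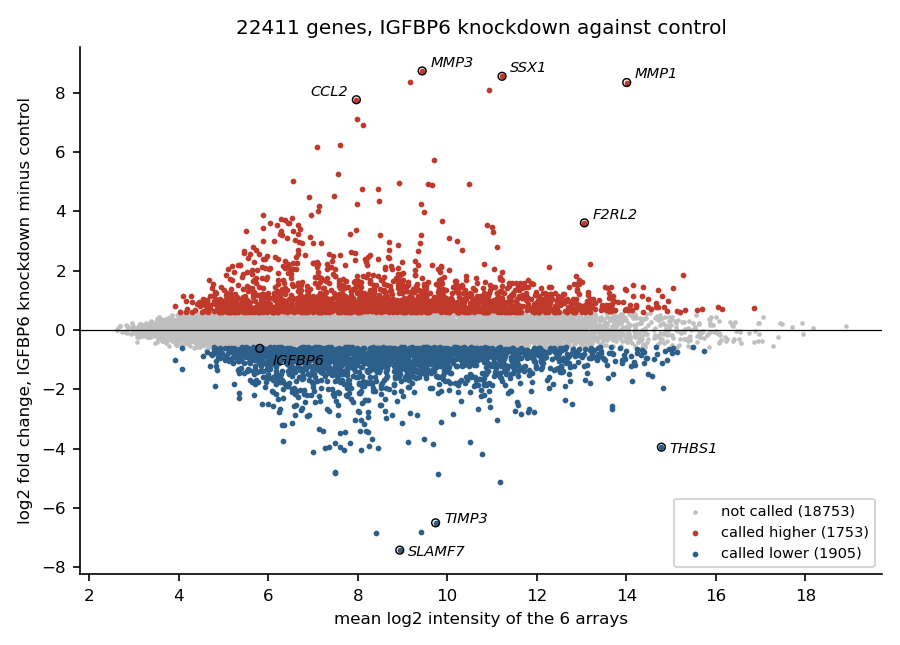
Log2 fold change, knockdown of *IGFBP6* minus control, against the mean log2 intensity of the 6 arrays, with 1 point per gene and n = 3 arrays per group. The called genes lie on both sides of 0 (1753 higher, 1905 lower), and the labelled genes range from a log2 fold change of 8.73 for *MMP3* to -7.42 for *SLAMF7*.

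Arrays of a group correlated at 0.9901 to 0.9942 within the knockdown and at 0.9942 to 0.995 within the control over all transcript clusters, and at 0.9724 to 0.9764 between the groups. The median of an array lay between 4.95 and 5.1, and the median SD of a gene was 0.106 in the control and 0.139 in the knockdown. As a measure of background, 394 olfactory receptor genes, which breast cells should not use, had a median level of 4.07, and 95% of them lay at or below 5.55. A fold from or to such a level holds on the processed scale only, as does a fold to a level above 16, which a 16-bit scanner cannot exceed.

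The largest rises included collagenase and stromelysin genes, a chemokine and several genes that other cell types use. Both metalloproteinases cleave collagens or other matrix proteins: *MMP1* arrays lay at 18.37, 18.13 and 18.03 against 9.92, 9.59 and 10.01 in the control, and *MMP3* arrays at 14.68, 13.19 and 13.54 against 5.02, 4.96 and 5.25. *CCL2*, which encodes a chemokine that attracts monocytes, was at 12.43, 11.78 and 11.33 in the knockdown and at background level in the control, at 4.21, 4.14 and 3.91 (log2 fold change 7.76 with a standard error of 0.24, adjusted p = 2.98e-08). For each of these genes the lowest knockdown array was far above the highest control array, where arrays without overlap were a condition of choice. The endothelial proteoglycan gene *ESM1* reached 10.60, 12.02 and 12.02 from 4.33, 4.46 and 4.49. The proton-sensing receptor gene *GPR65* reached 10.85, 11.82 and 12.05 from 4.54, 4.83 and 4.59, and knockdown replicate 1 was the lowest of the knockdown for both.

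Other genes among the 15 largest rises are known from blood cells, the nervous system, the intestine or the germ line. *NCKAP1L*, the blood cell form of a WAVE complex subunit, rose from 4.48 ± 0.05 to 10.73 ± 0.10 (SD, n = 3). *IL13RA2*, a decoy receptor for interleukin-13, rose from 4.01 ± 0.06 to 10.18 ± 0.27 (SD, n = 3). *LGR5*, the R-spondin receptor of intestinal stem cells, was at 12.87, 12.52 and 12.33 in the knockdown and at 6.96, 7.73 and 5.86 in the control, the widest control spread of the 15 genes. The membrane skeleton gene *EPB41L3* rose from 4.99 ± 0.02 to 13.34 ± 0.10 (SD, n = 3), and *LAMA4*, the alpha 4 chain of laminin, from 4.94 ± 0.04 to 10.20 ± 0.41 (SD, n = 3). *SSX1*, a cancer-testis antigen gene of the X chromosome, rose from 6.95 ± 0.28 to 15.50 ± 0.13 (SD, n = 3) and *RFPL4AL1* of chromosome 19 from 6.88 ± 0.14 to 14.98 ± 0.20. The latter pair has near-identical copies in the genome, so their signals may include RNA of relatives. *PPP4R3C*, *SHISA3* and the noncoding *LINC00707* complete the 15, with log2 fold changes of 5.03, 4.97 and 4.93.

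**Figure D2:**
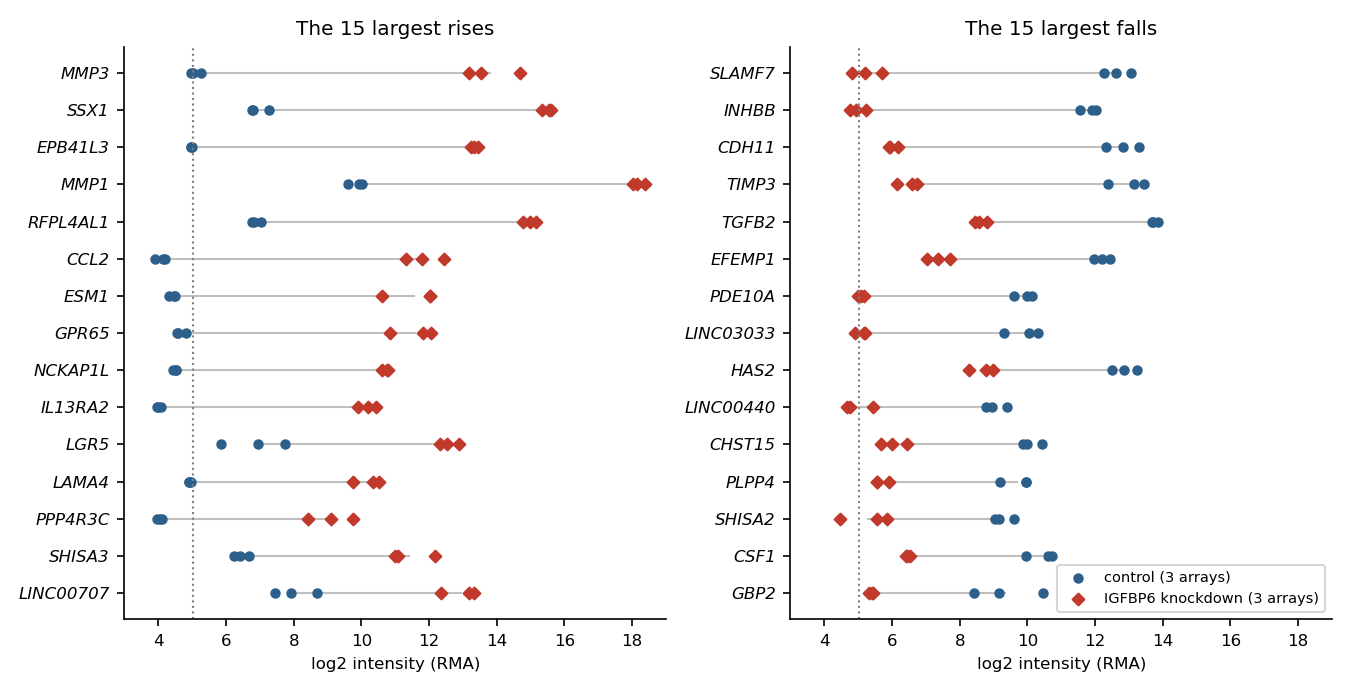
Log2 intensity of the 15 largest rises and the 15 largest falls in each of the 3 knockdown arrays (diamonds) and 3 control arrays (circles), with a line between the group means and a dotted line at 5.02, the median of all array values. Separate groups were a condition of the choice. The control means of 8 of the rises lie below the dotted line.

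The largest falls included genes of signalling molecules, adhesion and the matrix. *SLAMF7*, an immune receptor gene, was at 5.69, 5.19 and 4.82 in the knockdown and at 13.05, 12.63 and 12.27 in the control. *INHBB*, the beta B subunit of activins and inhibins, was at 5.23, 4.94 and 4.76 against 12.03, 11.91 and 11.55. *CDH11*, a cadherin of mesenchymal cells, was at 6.19, 5.93 and 5.90 against 12.82, 13.29 and 12.32. All 9 knockdown values of these genes were 6.19 or less and all 9 control values 11.55 or more. *TIMP3*, an inhibitor of metalloproteinases that is bound to the matrix, had a log2 fold change of -6.50 with a standard error of 0.25 (adjusted p = 1.04e-07). *EFEMP1* (fibulin-3, a matrix glycoprotein) fell from 12.21 ± 0.23 to 7.37 ± 0.34 (SD, n = 3), and *PDE10A*, a phosphodiesterase of cyclic nucleotides, from 9.91 ± 0.28 to 5.08 ± 0.08 (SD, n = 3).

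*HAS2* and *CHST15*, genes of hyaluronan and chondroitin sulfate synthesis, were among the 15 largest falls. *HAS2*, a hyaluronan synthase, was at 8.97, 8.79 and 8.27 in the knockdown and at 12.86, 12.49 and 13.23 in the control (log2 fold change -4.18 with a standard error of 0.21, adjusted p = 5.93e-07). *CEMIP*, which takes part in the breakdown of hyaluronan and was outside the 15, went from 8.14, 8.78 and 7.42 in the control to 5.31, 4.78 and 4.81, a log2 fold change of -3.15. Thus the synthase and the gene of the breakdown were both lower, without overlap of the arrays. *CHST15*, a sulfotransferase of chondroitin sulfate, fell by 4.06 on the log2 scale (adjusted p = 7.45e-07). *TGFB2*, described with its family below, *PLPP4*, *SHISA2*, *GBP2*, the growth factor gene *CSF1* and the noncoding *LINC03033* and *LINC00440* complete the 15 falls, with log2 fold changes from -5.14 for *TGFB2* to -3.96 for *GBP2*.

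In 17 genes the mean level went from below 5.02 in the control to 8 or more in the knockdown, and in 4 genes the other way. Besides 8 genes named above, the former were *FOXR2*, *CHRM3*, *AGMO*, *IL1RL1*, *CCND2*, *STXBP6*, *EPHA7* and the noncoding *LINC00648* and *LINC01446*. *FOXR2*, a forkhead transcription factor gene, was at 9.01, 9.01 and 9.47 in the knockdown and at 4.66, 4.54 and 4.84 in the control. *CHRM3*, a muscarinic acetylcholine receptor gene, was at 8.84, 8.75 and 9.08 against 4.96, 5.11 and 4.96, and *IL1RL1*, the interleukin-33 receptor, at 7.51, 8.80 and 8.19 against 4.50, 4.40 and 4.34. None of the 3 genes had a control array within 2 log2 units of a knockdown array. Arrays without overlap and distant means were conditions of the choice of these genes. The opposite group held *INHBB*, *LINC00440*, *CEMIP* and *TSPYL5* (8.20 ± 0.17 in the control and 4.45 ± 0.38 in the knockdown, SD, n = 3).

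Among abundant transcripts, with a mean of at least 10 in both groups, the largest rise was that of *F2RL2*, a protease-activated receptor gene: 14.75, 14.96 and 14.91 against 11.15, 11.02 and 11.61 (log2 fold change 3.61 with a standard error of 0.14, adjusted p = 1.43e-07). It was followed by *CD68*, known from lysosomes of macrophages (2.22), the rRNA methyltransferase gene *FTSJ3* (2.13) and the endosomal adaptor gene *APPL2* (2.05). *NT5E*, which encodes the ecto-nucleotidase CD73 that forms adenosine, rose from 14.34 ± 0.11 to 16.20 ± 0.04 (SD, n = 3), and the Src family kinase gene *YES1* from 11.98 ± 0.22 to 13.79 ± 0.24. The other 4 of the 10 largest rises were *PPFIBP1*, *IVNS1ABP*, *GNAQ* and *PRPF19*, with log2 fold changes from 1.69 to 1.95. At these intensities background has little weight.

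The largest fall of an abundant transcript was that of thrombospondin-1, a matricellular protein that restrains angiogenesis and activates latent TGF-beta. *THBS1* arrays lay at 13.08, 12.86 and 12.49 in the knockdown and at 16.75, 16.78 and 16.76 in the control (log2 fold change -3.95 with a standard error of 0.14, adjusted p = 7.02e-08). The control arrays differed by less than 0.05 and were above the scanner limit of 16. *CDC42BPA* (the myosin-directed kinase MRCK alpha), *MBNL2* (a splicing regulator), *MYL9* (a myosin light chain) and *UGCG* (glucosylceramide synthase) had log2 fold changes of -2.84, -2.78, -2.75 and -2.73. Tissue factor *F3*, which starts blood coagulation, fell from 15.01 ± 0.11 to 12.35 ± 0.23 (SD, n = 3). The kinase gene *PLK2*, the lysosomal protease gene *CTSD*, the adhesion receptor gene *ADGRE5* and *HEG1* had log2 fold changes of -2.65, -2.56, -2.54 and -2.50.

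Lists of genes with a shared role differed widely in how many members were called and in which direction, beside 7.82% called higher and 8.5% lower over all genes. In the lists most of whose members are expressed, the shares are read against 13.6% and 15.9%. Among lists of at least 10 measured members, the highest median log2 fold changes were those of cholesterol synthesis (0.61) and of rRNA processing and RNA polymerase I (0.43), and the lowest that of HLA class I and peptide loading (-0.78), where the median over all genes was -0.01.

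**Figure D3:**
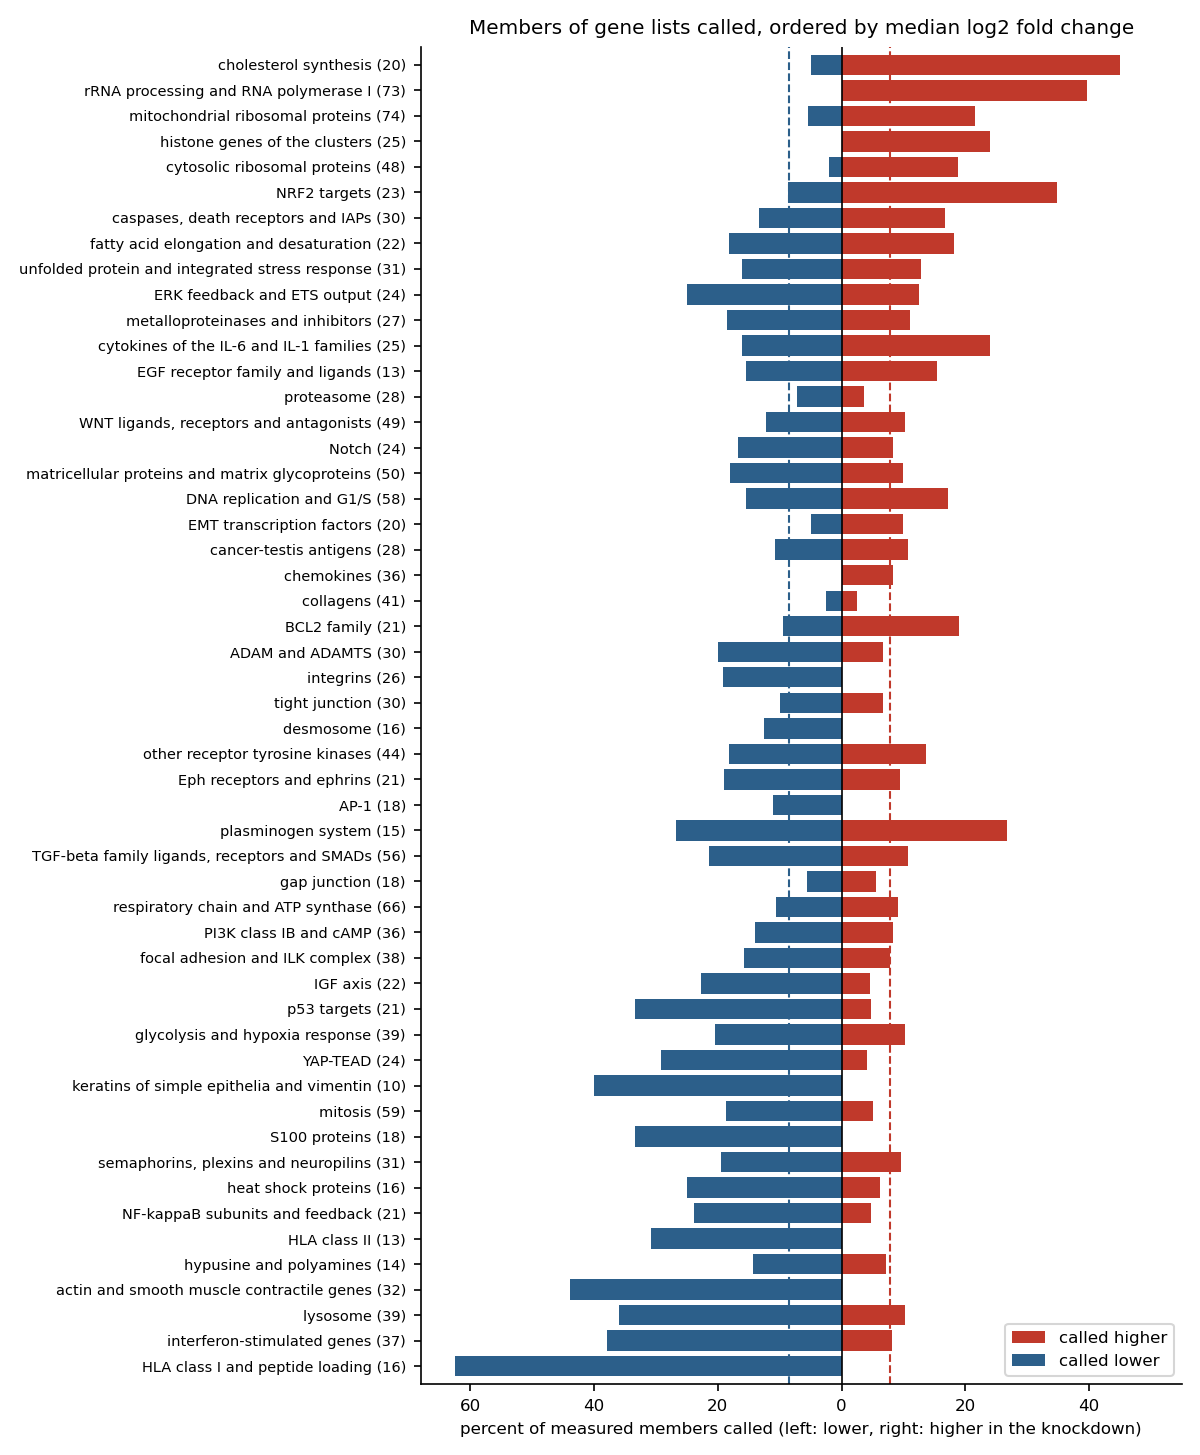
Percent of the measured members of each gene list called higher (right) or lower (left) in the knockdown of *IGFBP6*, with the number of measured members in brackets. Lists are ordered by their median log2 fold change and the dashed lines mark the shares over all genes, 7.82% and 8.5%. Cholesterol synthesis and rRNA processing stand at the top with 45.0% and 39.7% called higher, and HLA class I stands at the bottom with 62.5% called lower.

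Ribosome production starts in the nucleolus, where RNA polymerase I transcribes the precursor of the rRNA and many proteins process it. Of 73 genes of this process, all of them expressed, 29 rose (39.7%) and 0 fell, at a median log2 fold change of 0.43. *POLR1B*, the second largest subunit of RNA polymerase I, was at 10.69, 10.98 and 10.81 in the knockdown and at 9.10, 8.80 and 9.22 in the control, without overlap (log2 fold change 1.79, adjusted p = 4.46e-06). *TAF1A*, a subunit of the promoter selectivity factor of the same polymerase, rose by 1.48. The processing factors *FTSJ3*, *RRP12*, *HEATR1*, *EMG1*, *UTP11* and *NOP2* rose by 2.13, 1.75, 1.44, 1.26, 1.13 and 1.11. The largest subunit *POLR1A* (0.19, adjusted p = 0.198) and the nucleolar phosphoprotein *NPM1* (0.01, adjusted p = 0.979) were not called, and fibrillarin *FBL* lay at -0.58 (adjusted p = 0.00126), just under the fold threshold.

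Ribosomal protein genes, whose products the processed rRNA joins, gave the following counts. Of 48 genes of the cytosolic ribosome, 9 rose (18.8%) and 1 fell (2.08%), at a median of 0.21. Of 74 genes of the mitochondrial ribosome, 16 rose (21.6%) and 4 fell (5.41%), at a median of 0.25. Over expressed genes the shares were 13.6% and 15.9%. *RPL37A* went from 6.65, 6.67 and 6.74 in the control to 7.63, 7.75 and 7.55. *MRPS21* of the small mitochondrial subunit rose from 8.37 ± 0.25 to 10.21 ± 0.10 (SD, n = 3) and *MRPL24* of the large one from 8.31 ± 0.20 to 9.64 ± 0.27 (SD, n = 3). The genes of the respiratory chain and ATP synthase, which mitochondrial ribosomes serve in part, gave 6 higher (9.09%) and 7 lower (10.6%) of 66 (median -0.07). Relative to their neighbours in the genome, a measure given below, 3 cytosolic ribosomal protein genes were higher and 0 lower. On that scale 10 mitochondrial ribosomal protein genes were higher and 2 lower, and 6 genes of the respiratory chain higher and 2 lower. Without knockdown replicate 2 or control replicate 2, the 9 cytosolic genes called higher were 5 and 4.

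Cholesterol is made from acetyl-CoA by a chain of enzymes whose genes are switched on together by the factor SREBP-2 when sterols are scarce. Of 20 genes of the pathway and its control, 9 rose (45.0%) and 1 fell. *HMGCS1*, the synthase at the start of the chain, was at 10.60, 10.86 and 11.35 in the knockdown and at 9.09, 8.92 and 8.37 in the control (log2 fold change 2.14 with a standard error of 0.21, adjusted p = 5.14e-05). *SQLE*, the squalene epoxidase, was at 10.25, 10.55 and 10.81 against 9.11, 8.93 and 8.89. The knockdown arrays lay above every control array for both. *IDI1*, *MSMO1*, *SC5D* and *HSD17B7*, enzymes of the middle and late steps, rose by 1.56, 1.59, 1.53 and 1.59, and *STARD4*, a carrier of sterols, by 1.15. The fall was that of lanosterol synthase *LSS* (-0.68), which was below 1.5 times without knockdown replicate 1 (-0.58) and not called relative to its neighbours (-0.26). *SREBF2*, the gene of SREBP-2 itself, was not called (0.44, adjusted p = 0.105), and *INSIG1*, a brake on the system, had a control array far from the others (9.60, 9.22 and 7.78) and was not called.

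Genes of fatty acid handling moved in both directions, 4 higher and 4 lower of 22. These shares, 18.2% each way, are near the 13.6% higher and 15.9% lower over expressed genes. *ACSL1*, a long-chain acyl-CoA synthetase, fell from 9.02 ± 0.06 to 6.67 ± 0.32 (SD, n = 3), while its relative *ACSL5* rose from 11.61 ± 0.42 to 12.62 ± 0.14. The elongase gene *ELOVL7* was at 5.96, 5.91 and 6.10 in the knockdown and at 8.05 ± 0.06 (SD, n = 3) in the control (log2 fold change -2.06, adjusted p = 3.06e-07). *HACD2*, which carries out a later step of elongation, and *FADS3* of the desaturase family fell, with log2 fold changes of -1.09 and -1.05. The desaturase genes *SCD* (1.15, adjusted p = 0.0228) and *FADS2* (0.75) and fatty acid synthase *FASN* (0.77) were the other genes called higher. *SCD* was not called without knockdown replicate 2 (adjusted p = 0.0661) or replicate 3 (adjusted p = 0.0756), nor *FASN* when any of 5 single arrays was left out, and *FADS2* was at 0.57, under 1.5 times, without control replicate 3 and at 0.39 relative to its neighbours.

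HLA class I molecules present peptides of the cell to T cells and need beta-2-microglobulin and a peptide loading complex. Of 16 such genes, 10 fell (62.5%) and 0 rose. *B2M* was at 13.44, 13.82 and 13.61 in the knockdown and at 14.65, 14.98 and 14.52 in the control, a log2 fold change of -1.09 ± 0.14 (SE, adjusted p = 0.000362). *HLA-B* fell from 9.84 ± 0.38 to 7.76 ± 0.14 (SD, n = 3) and *HLA-C* from 11.04 ± 0.24 to 9.02 ± 0.14. The groups of arrays were apart for each of the 3 genes. The peptide transporter *TAP1*, the loading factor *TAPBP* and the trimming peptidase *ERAP2* fell, with -1.12, -1.38 and -0.90. *HLA-E* was not called (-0.28, adjusted p = 0.241), and *NLRC5*, an activator of these genes, lay at -0.47 (adjusted p = 0.0066), below the fold threshold. The HLA genes resemble one another and their transcript clusters were designed on alternative haplotypes, so their signals may be shared.

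Class II genes, which antigen-presenting cells use, were low in these cells, and 4 of 13 fell (30.8%, beside 8.5% over all genes). Their invariant chain *CD74* was at 5.67, 5.30 and 5.64 in the knockdown and at 7.27, 7.85 and 7.50 in the control. *HLA-DRA* went from 6.49, 7.80 and 6.01 to 4.69, 4.54 and 4.51, that is, to background in all 3 knockdown arrays. Of the 7 guanylate-binding protein genes, interferon-induced GTPases that lie in one cluster of chromosome 1, 4 fell and 0 rose. *GBP1* was at 7.47, 7.85 and 7.96 against 11.40, 11.84 and 11.52 in the control (log2 fold change -3.83, adjusted p = 7.18e-07), and *GBP3* fell by 3.05. They are close relatives, and their signals may be shared in part. Their neighbours on the chromosome lay 0.68 below the control, and relative to those *GBP1* was at -3.15, with 2 genes of the group higher and 4 lower.

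Of 37 interferon-stimulated genes, 14 fell (37.8%) and 3 rose. The antiviral genes *SAMD9L* and *SAMD9*, which lie side by side on chromosome 7, fell (-3.47 and -2.12), *SAMD9L* from 9.29, 9.88 and 8.85 in the control to 5.81, 5.97 and 5.83. *RIGI*, a sensor of viral RNA, fell from 10.10 ± 0.20 to 8.31 ± 0.09 (SD, n = 3), and *XAF1* fell by 1.45. The list did not move as a whole. *IFI44L* was at 8.58, 8.66 and 8.14 in the knockdown and at 5.50, 5.94 and 5.18 in the control, a rise of 2.92 (adjusted p = 5.52e-06), and *IFITM1*, a barrier to virus entry, rose by 0.99. The knockdown arrays of *IFI44L* were all above, and those of *SAMD9L* all below, every control array.

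Many genes of these groups carry an interferon-stimulated response element near their start site, and the promoters of 3 genes that fell and 1 that rose are shown to set both beside the motif. The windows run from 250 bases before to 50 after the start site (RefSeq, GRCh38.p14), and capitals mark matches to GAAANNGAAA on either strand.
*B2M* (chr15:44711267-44711566, plus strand): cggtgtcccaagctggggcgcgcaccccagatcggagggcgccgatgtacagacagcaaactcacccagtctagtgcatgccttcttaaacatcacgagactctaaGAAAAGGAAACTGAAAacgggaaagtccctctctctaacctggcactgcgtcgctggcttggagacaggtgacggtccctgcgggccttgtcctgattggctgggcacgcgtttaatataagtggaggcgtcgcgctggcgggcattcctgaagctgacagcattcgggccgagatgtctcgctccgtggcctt
*TAP1* (chr6:32853655-32853954, minus strand): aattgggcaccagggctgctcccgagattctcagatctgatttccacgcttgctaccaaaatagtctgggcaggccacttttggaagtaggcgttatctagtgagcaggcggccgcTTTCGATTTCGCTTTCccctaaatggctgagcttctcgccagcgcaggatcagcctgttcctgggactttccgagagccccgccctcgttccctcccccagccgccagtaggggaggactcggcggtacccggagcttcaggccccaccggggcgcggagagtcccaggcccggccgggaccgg
*SAMD9* (chr7:93117930-93118229, minus strand): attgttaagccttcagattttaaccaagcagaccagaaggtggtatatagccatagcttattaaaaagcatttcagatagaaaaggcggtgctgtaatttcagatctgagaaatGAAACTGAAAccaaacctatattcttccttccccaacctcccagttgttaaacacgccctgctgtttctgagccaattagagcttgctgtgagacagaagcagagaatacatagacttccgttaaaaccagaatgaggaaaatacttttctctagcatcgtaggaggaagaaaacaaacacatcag
*IFI44L* (chr1:78620198-78620497, plus strand): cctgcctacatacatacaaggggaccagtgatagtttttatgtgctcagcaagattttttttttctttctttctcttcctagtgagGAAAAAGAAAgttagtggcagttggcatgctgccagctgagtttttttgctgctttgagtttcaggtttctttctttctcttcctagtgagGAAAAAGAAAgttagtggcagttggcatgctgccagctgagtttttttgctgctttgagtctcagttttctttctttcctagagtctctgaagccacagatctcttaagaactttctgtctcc
Overlapping matches are written as a single stretch, as in *B2M* and *TAP1*, where 2 matches share bases and, in *TAP1*, read on the opposite strand. The motif was found in 20 of 30 interferon-stimulated genes with a promoter in the table (66.7%) and in 7 of 14 genes of HLA class I and peptide loading, against 3.65% of all 27305 promoters. It stood in 3.15% of the genes called higher and in 3.49% of those called lower. The fall of *SAMD9* and the rise of *IFI44L* thus both occurred with the motif in the window.

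Contractile genes formed another group in which falls prevailed. They encode actins, myosin subunits, tropomyosins and calponins, which build stress fibres, and the list also holds the regulators *SRF*, *MRTFA*, *MRTFB* and *MYOCD*. Of 32 genes, 14 fell (43.8%) and 0 rose, at a median of -0.31. *MYL9*, a regulatory light chain of myosin, was at 9.99, 10.67 and 10.63 in the knockdown and at 13.01, 12.86 and 13.68 in the control (log2 fold change -2.75 with a standard error of 0.23, adjusted p = 1.68e-05). *MYLK*, the kinase of that light chain, was at 5.31, 5.32 and 5.34 against 6.80, 7.12 and 6.79. The regulator and its substrate were lower together, with no overlap of arrays. Calponin 3 *CNN3*, caldesmon *CALD1*, tropomyosin *TPM1* and transgelin 2 *TAGLN2* fell, with -1.49, -1.48, -1.34 and -1.45. Beta-actin *ACTB* (-0.19, adjusted p = 0.218), alpha smooth muscle actin *ACTA2* (0.21, adjusted p = 0.102) and *TAGLN* (0.06, adjusted p = 0.862) were not called.

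Serum response factor switches on many of these genes through the CArG box together with its actin-sensing partners MRTF-A and MRTF-B. Both partner genes, counted above, fell slightly, *MRTFA* by 0.69 (adjusted p = 0.000445) and *MRTFB* by 0.62 (adjusted p = 0.000879), or by 0.57 and under 1.5 times without control replicate 2, and *SRF* was not called (-0.35, adjusted p = 0.263). Promoter windows with a CArG box of a gene that fell by 1.58 and of a gene that fell by 0.84 are shown with the box in capitals (RefSeq, GRCh38.p14, 250 bases before to 50 after the start).
*MYLK* (chr3:123620499-123620798, minus strand): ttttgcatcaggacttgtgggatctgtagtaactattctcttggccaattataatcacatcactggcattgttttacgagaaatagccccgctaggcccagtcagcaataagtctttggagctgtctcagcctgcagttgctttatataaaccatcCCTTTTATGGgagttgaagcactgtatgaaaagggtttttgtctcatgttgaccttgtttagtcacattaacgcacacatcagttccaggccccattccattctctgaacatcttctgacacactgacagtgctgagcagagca
*CNN2* (chr19:1026358-1026657, plus strand): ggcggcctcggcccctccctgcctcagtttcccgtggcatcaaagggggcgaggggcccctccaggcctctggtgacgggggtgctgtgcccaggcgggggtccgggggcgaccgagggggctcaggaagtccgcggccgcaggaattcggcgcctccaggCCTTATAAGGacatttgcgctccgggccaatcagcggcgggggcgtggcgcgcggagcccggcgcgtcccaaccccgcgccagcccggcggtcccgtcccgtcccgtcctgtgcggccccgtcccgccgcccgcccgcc
The box was found in 8 of 26 promoters of the contractile genes (30.8%), where 1.29% of all promoters of that length hold it, and in 1.15% and 1.57% of the genes called higher and lower.

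**Figure D4:**
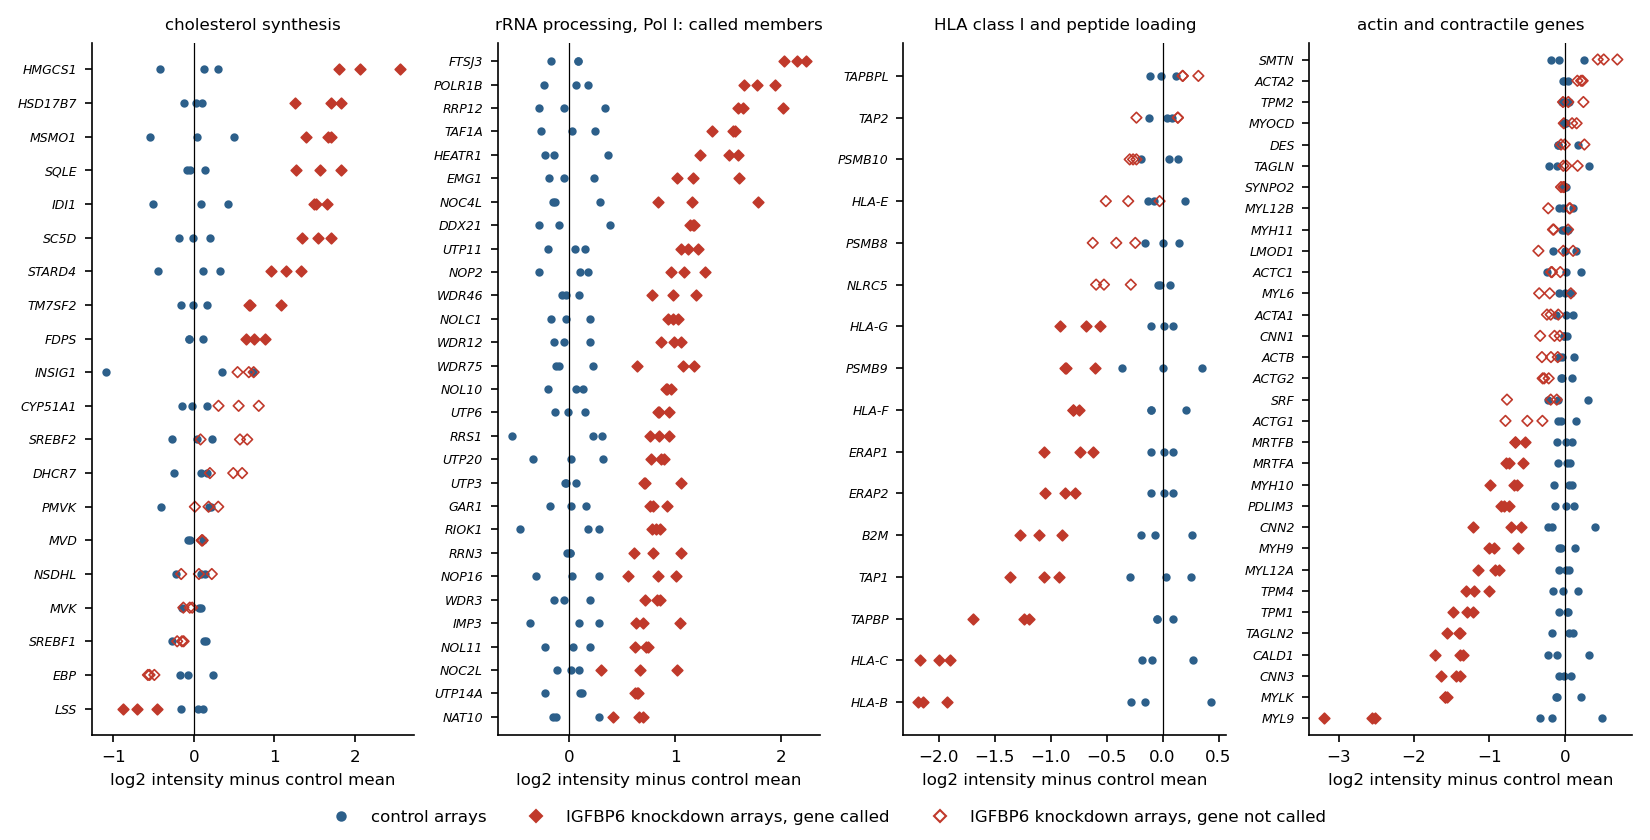
Log2 intensity minus the control mean for members of 4 gene lists, with the 3 control arrays as circles and the 3 knockdown arrays as diamonds, filled for genes called. All 29 called members of rRNA processing lie to the right of 0, 9 of the 10 called members of cholesterol synthesis lie to the right, and all 10 called members of HLA class I and all 14 called contractile genes lie to the left.

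Integrins are paired receptors that hold the cell to matrix proteins. Of 26 genes, 5 fell (19.2%) and 0 rose, beside 8.5% and 7.82% over all genes. *ITGB3* was at 5.39, 5.47 and 5.42 in the knockdown, near background, and at 7.78, 8.61 and 7.80 in the control. *ITGA3*, a laminin receptor chain, fell from 12.59 ± 0.10 to 11.08 ± 0.27 (SD, n = 3), and *ITGB5* (-1.16) and *ITGAV* (-0.94) fell as well. *ITGB1*, the partner of most alpha chains, lay at -0.30 and was not called. Inside the cell, the focal adhesion protein gene *TNS3* fell from 9.59, 10.00 and 9.61 to 5.86, 6.03 and 5.89 (log2 fold change -3.81 with a standard error of 0.12, adjusted p = 2.98e-08), and focal adhesion kinase *PTK2* fell by 0.83. Of 38 genes of the focal adhesion and of the complex of integrin-linked kinase, 6 fell (15.8%) and 3 rose (7.89%), beside 15.9% and 13.6% over expressed genes. The rises were those of paxillin *PXN* (0.77), its relative leupaxin *LPXN* (1.57) and the adaptor *GIT1* (0.68). *GIT1* was at 0.55, under 1.5 times, without knockdown replicate 2.

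In cell contacts, desmoplakin *DSP* fell from 12.11 ± 0.27 to 9.75 ± 0.15 (SD, n = 3) and plakoglobin *JUP* fell by 1.36. Zonula occludens protein *TJP1* fell by 0.99, and the nectin-like *CADM1* fell by 1.52. Occludin *OCLN* and the gap junction gene *GJA1* (a connexin) moved the other way, *GJA1* from 6.77, 6.91 and 7.32 in the control to 8.92, 9.77 and 9.66. Of 16 desmosome genes 0 rose and 2 fell (12.5%), and of 30 tight junction genes 2 rose (6.67%) and 3 fell (10.0%). Of 18 gap junction genes 1 rose and 1 fell (5.56% each), and of 9 nectin genes 0 rose and 2 fell (22.2%). Over all genes the shares were 7.82% higher and 8.5% lower. Simple keratins *KRT8* and *KRT7* fell (-1.06 and -0.88), and vimentin *VIM*, the filament of mesenchymal cells, was 0.31 above the control and not called.

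Ligands of the TGF-beta family, which act through pairs of receptors and SMAD proteins, included large falls. Of 56 genes of the family, 6 rose (10.7%) and 12 fell (21.4%), beside 13.6% and 15.9% over expressed genes. With the spread of each gene taken from its own arrays alone, 3 were higher. *TGFB2* was at 8.81, 8.57 and 8.45 in the knockdown and at 13.67, 13.85 and 13.72 in the control (log2 fold change -5.14 with a standard error of 0.11, adjusted p = 3.49e-09). *BMP4* was at 8.80, 8.65 and 8.40 against 12.77, 12.48 and 11.98, and its antagonist *NOG* (noggin) at 8.18, 8.24 and 8.51 against 11.50, 11.33 and 11.44. A ligand and its antagonist thus fell together, by log2 fold changes of -3.79 and -3.11. The receptor genes *TGFBR1* and *TGFBR3* fell (-1.94 and -2.39), and so did *LTBP1* (-2.53), which tethers latent TGF-beta to the matrix. *GDF11* rose by 1.66 and the signal transducer of the BMP branch *SMAD1* by 1.34. *TGFBR2* was not called (-0.15, adjusted p = 0.681), nor was the inhibitory *SMAD7* (-0.01, adjusted p = 0.975).

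Fibronectin fell and laminin chains moved in both directions. Fibronectin *FN1* was at 11.41, 12.04 and 11.58 in the knockdown and at 13.48, 13.86 and 13.37 in the control (log2 fold change -1.89, adjusted p = 4e-05). *LAMA1* rose from 4.62 ± 0.08 to 6.65 ± 0.11 (SD, n = 3), beside the rise of *LAMA4*, and *LAMB2* fell by 1.08. Lysyl oxidase *LOX*, which crosslinks collagen, rose by 1.58 and the matrix adaptor *TGFBI* by 1.75. Of 50 matricellular and glycoprotein genes, 5 rose and 9 fell, and of 41 collagen genes 1 rose and 1 fell, a smaller share than over all genes; only 6 of the collagens had a mean of at least 6. Among matrix proteases, *ADAMTS12* (-2.97), *ADAM10* (-1.61) and *MMP16* (-1.81) fell, while *ADAMTS1* (1.09), *ADAMTS3* (0.71) and *MMP10* (1.06) rose. Of 30 ADAM and ADAMTS genes 2 were higher and 6 lower, and of 27 genes of matrix metalloproteinases and their inhibitors 3 and 5.

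The list of the plasminogen system, which activates matrix breakdown and clot lysis, also holds genes of coagulation such as *F3*. It gave 4 rises and 4 falls among 15 genes (26.7% each, beside 13.6% and 15.9% over expressed genes). Urokinase *PLAU* was at 12.29, 12.13 and 11.37 in the knockdown and at 10.09, 9.85 and 9.20 in the control (log2 fold change 2.22 with a standard error of 0.26, adjusted p = 0.000178). Its receptor *PLAUR* rose by 0.90 and its inhibitor *SERPINE2* by 1.45. *TFPI2*, an inhibitor of plasmin and other proteases, rose from 9.02 ± 0.11 to 11.05 ± 0.33 (SD, n = 3). These 4 genes were higher without overlap of the arrays. The falls were those of tissue factor *F3* (-2.66), *S100A10* (-1.02), a receptor of plasminogen with annexin A2, thrombomodulin *THBD* (-0.80) and the other plasminogen activator *PLAT* (-0.67). *PLAT* was not called when any of 3 single arrays was left out, and *THBD* was at -0.51 relative to its neighbours, under 1.5 times.

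Genes of the YAP and TEAD group, a coactivator that responds to cell spreading, its partner factors, regulators and targets, gave 1 rise and 7 falls among 24 genes. These shares were 4.17% and 29.2%, beside 13.6% and 15.9% over expressed genes. *CCN1* was at 12.15, 12.57 and 12.68 in the knockdown and at 13.40, 13.61 and 13.98 in the control, while *CCN2*, the other classical target, was 0.70 higher and not called (adjusted p = 0.0554). The scaffold gene *AJUBA* fell by 1.40 and *ASAP1* fell by 1.87. The rise was that of *TEAD4*, one of the partner factors (1.08, and 0.57, under 1.5 times, relative to its neighbours). *YAP1* itself was not called (0.41, adjusted p = 0.0353, below 1.5 times). The motif GGAATG, one of the forms TEAD proteins bind, was found on either strand in 7 of 17 promoters of the list (41.2%). It stood in 3836 of the 27305 promoters, in 145 of 1397 genes called higher and in 174 of 1461 called lower. The sterol element TCACNCCAC, also searched, was found in 1 of 19 promoters of cholesterol synthesis, against 313 of the 27305. The AP-1 element TGAGTCA was found in 1 of 16 promoters of metalloproteinases and inhibitors and in 5 of 26 of chemokines. Of the 27305 promoters, 1344 held it.

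Cytokine genes changed one by one. Of 36 chemokine genes 3 rose and 0 fell (8.33% higher, near the 7.82% over all genes), and only 4 of them had a mean of at least 6. *CCL20* rose by 1.22 beside *CCL2*. Of 25 genes of the interleukin group, 6 rose and 4 fell. *IL24* was at 9.98, 10.86 and 9.75 in the knockdown and at 6.61, 7.39 and 7.67 in the control, and *IL1B* at 6.61, 8.39 and 7.55 against 5.13, 5.56 and 4.94, both without overlap and with a wide spread in the knockdown. *IL18* and *IL7* rose by 1.16 and 1.43. *IL6*, a cytokine of inflammation, fell from 7.15 ± 0.15 (SD, n = 3) to 5.61, 5.31 and 5.53. *CSF1*, the growth factor of macrophages, fell from 10.43 ± 0.40 to 6.46 ± 0.06 (SD, n = 3). *CCL2* and *CSF1*, both of which act on the monocyte lineage, moved in opposite directions by 7.76 and -3.97. The NF-kappaB inhibitor *NFKBIA* fell by 1.88 and the deubiquitinase *CYLD*, another brake on the pathway, fell by 1.44, while *RELA* was level (-0.05, adjusted p = 0.867). *TNFAIP3*, a feedback gene of the same pathway, moved the other way and rose by 1.06. Of 21 genes of NF-kappaB subunits and feedback, 1 rose (4.76%) and 5 fell (23.8%), beside 13.6% and 15.9% over expressed genes.

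Receptors and ligands of growth factors moved in both directions. *EGFR* rose from 12.55, 12.59 and 12.67 to 13.31, 13.46 and 13.45 (log2 fold change 0.80, adjusted p = 0.000331). Of its ligands, *EREG* (epiregulin) rose by 1.53 and *TGFA* fell by 2.16, and *NRG1*, a ligand of the related ERBB3 and ERBB4, fell by 1.13. The receptor of hepatocyte growth factor *MET* fell by 1.23. *VEGFA*, the growth factor of blood vessels, was at 7.50, 7.16 and 7.10 in the knockdown and at 9.81, 10.39 and 9.75 in the control, a log2 fold change of -2.73. *MERTK* rose by 1.34 and its ligand *GAS6* fell by 1.08. *FGF13* and *PDGFD* rose by 2.58 and 1.09 and *PDGFC* fell by 1.19.

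Guidance receptors, which steer cells by repulsion or attraction, included a rise of *EPHA3* from 4.10, 4.27 and 4.07 to 7.31, 7.81 and 7.68 and one of *EPHA7* from 4.88 ± 0.01 to 8.21 ± 0.28 (SD, n = 3). The ligand ephrin-B2 *EFNB2* fell by 2.07. The semaphorin receptor genes split by paralog: *NRP2* and *PLXNA2* rose by 2.25 and 2.35, and *NRP1* and *PLXNA1* fell (-0.97 and -2.33). *PLXNA2* was at 8.66, 9.31 and 9.38 against 6.92, 6.72 and 6.66, and *PLXNA1* at 7.14, 7.62 and 7.55 against 9.82, 10.15 and 9.33, so that the ranges of each gene were apart in opposite directions. Of 31 genes of that group 3 rose and 6 fell (9.68% and 19.4%, beside 13.6% and 15.9% over expressed genes).

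In the Notch pathway, the ligand *JAG1* fell from 11.13 ± 0.20 to 9.38 ± 0.26 (SD, n = 3), the nuclear effector *RBPJ* fell by 0.72 and the target *HES1* fell by 2.08, with *HES1* arrays at 6.44, 6.83 and 6.31 against 9.26, 8.65 and 7.91. In the WNT pathway, the secreted antagonist *DKK1* fell by 1.21 from a high level, and the WNT5A receptor *ROR1* fell by 1.52. *FZD4*, a WNT receptor, *LEF1*, a transcription factor of the pathway, and the ligand *WNT5A* rose by 1.54, 1.58 and 1.00. The Notch list as a whole gave 2 higher and 4 lower of 24 (8.33% and 16.7%). The WNT list gave 5 higher and 6 lower of 49 (10.2% and 12.2%). Over all genes the shares were 7.82% and 8.5%.

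Enzymes of second messengers held one of the larger rises. *PIK3CG*, the catalytic subunit of the class IB phosphoinositide 3-kinase of blood cells, was at 10.34, 10.65 and 10.91 in the knockdown and at 6.15, 6.30 and 6.44 in the control (log2 fold change 4.34 with a standard error of 0.16, adjusted p = 1.02e-07). The phosphodiesterase genes moved apart: *PDE10A* and *PDE1C* fell (-4.83 and -1.53), and *PDE3B* and *PDE4D* rose by 2.50 and 0.84. *ADCY9*, an adenylate cyclase, fell by 1.01. In the feedback of the ERK pathway, the phosphatase *DUSP4* fell by 1.30, *DUSP5* rose by 1.11 and the ETS factor *ETV4* rose by 0.91. *MYC* was at 8.58, 8.63 and 8.37 in the knockdown and at 9.96, 9.43 and 9.97 in the control, a log2 fold change of -1.26 (adjusted p = 0.000217).

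D-type cyclins, which start the cell cycle, moved in opposite directions. *CCND1* was at 13.53, 13.62 and 13.62 in the knockdown and at 14.90, 14.68 and 14.75 in the control (log2 fold change -1.19, adjusted p = 9.54e-06), while *CCND2* rose from background, 4.51, 4.56 and 4.53, to 7.73, 8.71 and 8.24. Genes of DNA replication gave 10 higher and 9 lower of 58 (17.2% and 15.5%), near the shares over expressed genes, and 6 and 4 relative to their neighbours. *MCM3* of the replicative helicase rose by 1.07, and *PCNA*, its partner at the fork, was not called (-0.23, adjusted p = 0.199). Of 59 mitosis genes 3 rose and 11 fell (18.6% lower, beside 15.9%), *CENPI* (-1.81) and *KIF4A* (-1.23) among them, both on the X chromosome, where expressed genes lay at a median of -0.36, and 7 were lower relative to their neighbours. The proliferation marker *MKI67* was not called (-0.36, adjusted p = 0.0505).

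Genes of cell death moved on both arms. The death ligand TRAIL, *TNFSF10*, was at 4.75, 4.48 and 5.04 in the knockdown and at 7.89, 8.35 and 7.62 in the control (log2 fold change -3.20, adjusted p = 6.55e-06). The BCL2 family, which guards mitochondria, gave 4 rises and 2 falls among 21 genes. *BCL2A1* rose from 4.11 ± 0.36 to 6.29 ± 0.29 (SD, n = 3) and *MCL1* by 0.88, both protective, while the likewise protective *BCL2L1* fell from 11.08, 10.99 and 11.05 to 9.90 in all 3 arrays. Inflammatory caspase *CASP4* and *MLKL*, the effector of necroptosis, rose by 1.49 and 1.38. Of 21 targets of p53, which is mutated in this line, 1 rose (4.76%) and 7 fell (33.3%). Relative to their neighbours, 0 were higher and 3 lower.

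Lysosomal genes gave 4 rises and 14 falls among 39 (35.9% lower, beside 15.9% over expressed genes). The protease *CTSD* was at 12.41, 12.56 and 12.27 in the knockdown and at 15.11, 15.22 and 14.59 in the control, and the membrane protein *LAMP2* at 11.13, 11.35 and 11.39 against 13.18, 13.38 and 13.19. *IDS*, the channel *MCOLN1* and *CTSB* fell, with -1.24, -1.41 and -1.23. In contrast, galactosylceramidase *GALC* was at 11.64, 11.87 and 11.64 against 8.76, 8.91 and 8.47 (adjusted p = 2e-07), and the proteases *CTSS* and *LGMN* rose by 1.41 and 1.23. All 6 arrays separated by group for each of these 8 genes, as for 3634 of the 3658 called genes. *GALC* and *LGMN* lie on chromosome 14, where their neighbours were 0.53 and 0.48 above the control.

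Of 23 targets of NRF2, the factor of the antioxidant response, 8 rose (34.8%) and 2 fell (8.7%). Over expressed genes the shares were 13.6% and 15.9%. The aldo-keto reductase genes *AKR1C3*, *AKR1C1* and *AKR1C2* rose by 2.13, 1.43 and 0.92, and the export pump *ABCC3* fell by 1.28. The 3 reductase genes are near-identical and adjacent on chromosome 10, so they may not count as separate events. In amino acid supply, *PSAT1* of serine synthesis rose by 1.39 and the leucine transporter gene *SLC7A5* fell from 13.82 ± 0.12 to 11.46 ± 0.43 (SD, n = 3). Ornithine decarboxylase *ODC1*, the first enzyme of polyamine synthesis, rose by 1.44. The kinase *EIF2AK3* (PERK) of the unfolded protein response fell by 1.10.

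Calcium-binding S100 protein genes gave 6 falls (33.3%, beside 8.5% over all genes) and 0 rises among 18, most of which are near background. *S100A11* fell from 12.92 ± 0.27 to 12.03 ± 0.10 (SD, n = 3), and *S100A6* and *S100A4*, the latter known from motile cancer cells, had log2 fold changes of -1.20 and -1.23. They lie in one cluster of chromosome 1, whose neighbours were 0.19 to 0.20 above the control. Of 20 transcription factor genes linked to the epithelial-mesenchymal transition, 2 rose (10.0%) and 1 fell (5.0%), beside 7.82% and 8.5% over all genes. *SNAI2* (Slug) was at 6.63, 6.53 and 6.51 in the knockdown and at 9.83, 9.38 and 9.54 in the control, a log2 fold change of -3.03 (adjusted p = 1.09e-06), and *TCF4* rose from 5.00 ± 0.08 to 7.09 ± 0.23. *ZEB1* was not called (0.47, adjusted p = 0.016, below 1.5 times). Histone genes gave 6 rises (24.0%, beside 13.6% over expressed genes) and 0 falls among 25, among them *H2BC18* (0.94) and *H2AC13* (0.96). Their sequences are alike, and 5 histone genes were also called higher in the knockdown of *ELOVL5*, a comparison that uses the same control arrays. With the spread of each gene from its own arrays alone, 3 histone genes were called higher.

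Protein-coding genes gave 1565 higher and 1760 lower of 17154. Of 1937 long noncoding RNA genes 85 rose (4.39%) and 44 fell (2.27%). Of 240 small nucleolar RNA genes 12 rose (5.0%) and 13 fell (5.42%), and of 1041 microRNA genes 13 rose (1.25%) and 24 fell (2.31%). Each of these noncoding shares was below the 7.82% higher or 8.5% lower over all genes. *UCA1*, a long noncoding RNA known from carcinomas, was at 6.43, 6.63 and 6.01 in the knockdown and at 9.54, 9.42 and 10.28 in the control (log2 fold change -3.39, adjusted p = 3.42e-06). *LINC02582* and *PTCSC3* rose by 3.68 and 4.89. Most noncoding genes are dim on the array, with a median control level of 4.66 for microRNA genes and 4.64 for long noncoding ones.

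MicroRNAs act by pairing of their seed, bases 2 to 8, with mRNAs, and the mature sequences of the called loci that share a seed or lie in one cluster are given with the seed in capitals (RefSeq, GRCh38.p14). The transcript clusters measure RNA of the locus on total RNA and do not show the level of the mature form.
hsa-miR-181b-5p (*MIR181B1*, chr1:198858925-198858947, minus strand): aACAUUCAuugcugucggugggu
hsa-miR-181b-5p (*MIR181B2*, chr9:124693725-124693747, plus strand): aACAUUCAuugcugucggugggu
hsa-miR-221-3p (*MIR221*, chrX:45746180-45746202, minus strand): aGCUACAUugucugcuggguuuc
hsa-miR-222-3p (*MIR222*, chrX:45747036-45747056, minus strand): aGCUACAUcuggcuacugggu
hsa-let-7a-5p (*MIRLET7A2*, chr11:122146568-122146589, minus strand): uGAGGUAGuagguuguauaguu
hsa-miR-4500 (*MIR4500*, chr13:87618671-87618687, minus strand): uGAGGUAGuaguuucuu
hsa-let-7f-5p (*MIRLET7F1*, chr9:94176353-94176374, plus strand): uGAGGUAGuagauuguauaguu
hsa-miR-100-5p (*MIR100*, chr11:122152275-122152296, minus strand): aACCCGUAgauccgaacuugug
*MIR181B1* was at 8.86, 9.14 and 9.57 in the knockdown and at 11.26, 11.45 and 11.13 in the control, and *MIR181B2*, the locus of the same mature sequence on another chromosome, lay at -0.83, and was not called relative to its neighbours (-0.47) or when any of 3 single arrays was left out. The adjacent *MIR221* and *MIR222*, which share the seed GCUACAU, fell (-1.58 and -0.79). Loci with the let-7 seed GAGGUAG did not move together. *MIR4500* was at 8.18, 8.40 and 8.95 against 4.58, 5.57 and 5.96, and *MIRLET7A2* rose by 1.35 next to *MIR100* (1.37, not called when any of 4 single arrays was left out), while *MIRLET7F1* lay at -0.74 and, relative to its neighbours, at -0.21.

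The calls were not even over the genome. On chromosomes 12, 14 and 2 most called genes were higher, with 211 against 78, 125 against 23 and 186 against 74. On chromosomes 19, 7 and X most were lower, with 34 against 193, 28 against 138 and 50 against 128. The expressed protein-coding genes of chromosome 12 had a median log2 fold change of 0.36, those of chromosome 19 of -0.28 and those of chromosome X of -0.36. When such genes were taken in 226 runs of 40 in genome order, the median of a run went from -0.92 to 0.77, with 13 runs at 0.4 or more and 28 at -0.4 or less. In the knockdown of *ELOVL5*, set against the same control arrays, the runs lay between -0.3 and 0.28.

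In 14 runs at least 20 of the 40 genes were called in one direction. The lowest run, on chromosome 12 from *KCTD10* to *SPRING1*, had 29 genes lower and 0 higher, with medians of -0.96, -0.81 and -0.87 in the 3 knockdown arrays. On the same chromosome, the highest run, from *PLBD1* to *SINHCAF*, had 26 genes higher and 1 lower, with array medians of 0.59, 0.90 and 0.87. A run of chromosome 19 from *ZNF85* to *GPI* lay at -0.86 with 26 genes lower, and one of chromosome 14 from *ALDH6A1* to *EML5* at 0.71 with 22 genes higher. Genes of a run share no role that chose them. Only RNA was measured, and DNA at these positions was not analysed here.

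**Figure D5:**
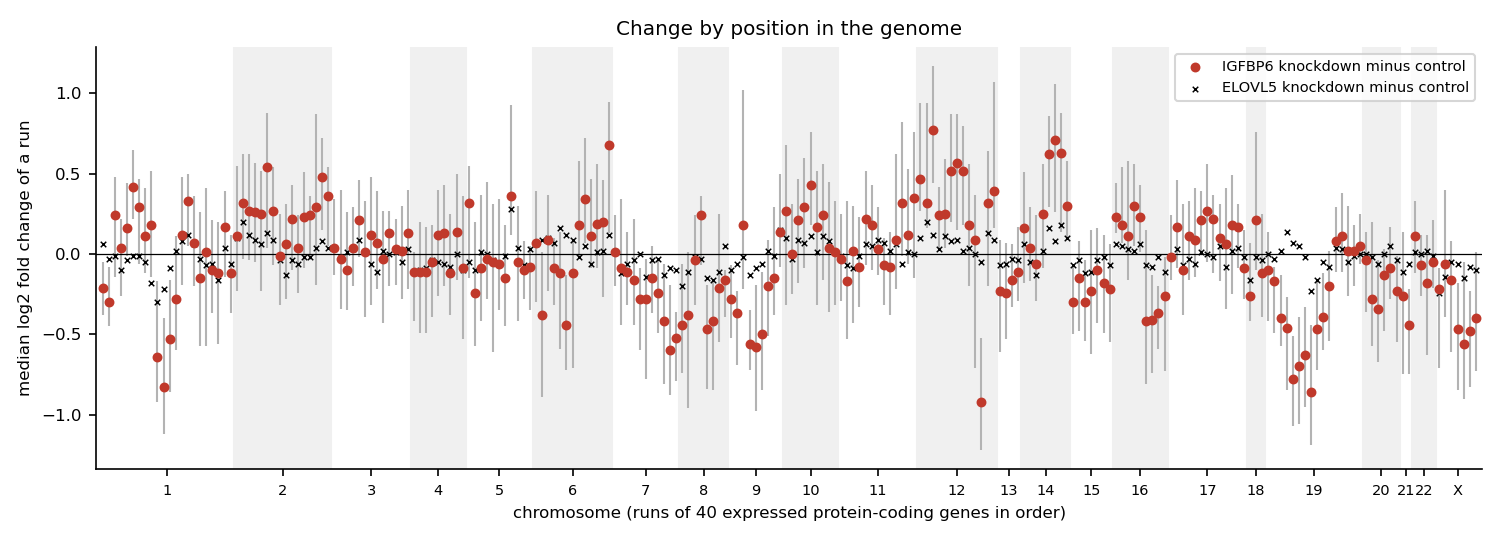
Median log2 fold change of runs of 40 neighbouring expressed protein-coding genes in genome order, knockdown of *IGFBP6* minus control (circles, with the quartiles of the 40 genes as lines) and knockdown of *ELOVL5* minus control (crosses). Runs of the *IGFBP6* knockdown reach from -0.92 to 0.77 and adjacent runs lie on the same side in parts of chromosomes 1, 12, 14 and 19, while the crosses stay between -0.3 and 0.28.

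For this reason each array value was also taken relative to the 40 nearest expressed genes on the chromosome. On that scale 1995 genes were higher (8.93%) and 1722 lower (7.71%) of 22344 with neighbours, and 1253 of 1750 genes called higher and 1241 of 1904 called lower kept their call. *IGFBP6* lies on chromosome 12 among genes that were 0.35 above the control, and relative to them it was at -0.97 (adjusted p = 0.000905), more than the -0.62 of the plain comparison. On that scale 29 genes of rRNA processing and 11 of cholesterol synthesis were higher and 10 of HLA class I lower. Contractile genes gave 1 higher and 15 lower, and lysosomal genes 5 higher and 13 lower. Interferon-stimulated genes gave 4 higher and 9 lower, and zinc finger genes named *ZNF*, many on chromosome 19, went from 33 higher and 91 lower of 533 to 39 and 29.

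The cell type of the label was checked by marker genes. Of 12 markers of basal and mesenchymal breast cancer cells, 10 were expressed, with *VIM* at 14.80 to 15.30 and *MSN* at 15.26 to 15.58 over the 6 arrays, while the basal keratins *KRT5* and *KRT14* were at background. Of the 12, 2 were called higher (16.7%) and 4 lower (33.3%), beside 13.6% and 15.9% over expressed genes. *TGFBI* and *EGFR* rose, and *LGALS1* (-1.75), *CAV1* (-0.88), *CD44* (-0.67) and *AXL* (-0.62) fell. The estrogen receptor *ESR1* was at 4.57 to 4.79 in all 6 arrays, within the range of the olfactory receptor genes. Of 11 luminal markers, 6 were expressed, 1 was called higher (9.09%) and 4 lower (36.4%), beside 13.6% and 15.9% over expressed genes. Markers of fibroblasts had means of at most 5.12 in either group, and 0 of 8 were called. The luminal marker that rose was the factor *FOXA1*, from 5.02 ± 0.07 to 7.40 ± 0.27 (SD, n = 3). The luminal markers *KRT8* (-1.06), *CDH1* (-0.77), *GATA3* (-0.76) and *KRT19* (-0.7) fell. Of 7 endothelial markers *TIE1* rose from 4.70 ± 0.04 to 6.59 ± 0.38, with *KDR* the other one called, while *PECAM1*, *VWF* and *CDH5* stayed at 3.83 to 4.90 in the control and 3.58 to 4.84 in the knockdown. Leukocyte markers *CD3E*, *CD14* and *LYZ* had means of 3.99 to 4.65 in both groups, and the one marker called, *PTPRC*, was lower in the knockdown.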

How the data were processed

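Total RNA of 9 samples of MDA-MB-231 was measured on the Human Transcriptome Array 2.0. The authors processed the arrays in Transcriptome Analysis Console 4.0.0.25 with RMA and deposited log2 values for 67528 transcript clusters, and the RMA options are not given in the sources used here. RMA quantile-normalizes arrays, so a shift of all genes is removed, and its background step compresses folds of dim genes. The deposited log2 values ran from 2.28 to 19.29, with 0.301% above 16, and the number of arrays limits the precision.

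Groups were taken from the labels. A linear model of the 9 arrays was fitted with limma 3.58.1 (lmFit, eBayes) in R 4.3.3, and the contrast of the knockdown of *IGFBP6* minus LUC was adjusted by the Benjamini-Hochberg method over all transcript clusters. Calls required 0.05 for the adjusted p and 1.5 for the fold. With 3 arrays against 3, exact permutation cannot give a p below 0.1 and was not used. Known changes were put into simulated data, on which the fit was checked. Tables and figures were made in Python 3.11.15 with matplotlib 3.10.9.

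Of the transcript clusters, 23781 had 1 gene symbol, 1543 had several and 42204 had none. The brightest cluster stood for each of 528 genes with more than 1. Symbols were matched to the current RefSeq table by gene ID (21497), symbol (1974) or older symbol (306), and 4 matched none. That table gave chromosome and gene order, and no gene coordinates are printed because the build of the array design was not matched to it. For values relative to neighbours, the median shift of the 40 nearest expressed protein-coding genes was subtracted from each array.

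Members and lists were chosen with earlier results of these data known. Genes were named by a rule: the target and *ELOVL5*, the 15 largest changes in each direction without overlap of arrays, the 10 largest of transcripts with a mean of at least 10 in both groups, genes that crossed from below the median of all values to 8 or more, up to 6 called members per list and direction with chosen anchors, and the 5 largest noncoding changes each way. *NOP2*, *UTP11*, *STARD4*, *CNN2*, *MRTFA*, *MRTFB*, *GBP1*, *GBP3*, the microRNA loci and several uncalled members were named outside it, after their values were seen. XIST and Y-linked genes were left out, and 1 list is not reported here.

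Alternatives changed the spread model, the arrays in the fit, the replicate block, a filter on dim clusters, quantile normalization, array weights, median centring, the adjustment, the neighbours, the cluster per gene and the fold threshold, and left out each array in turn. All 9 value columns were used.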

Additional observations from a re-analysis of the deposited data

Results flagged for a closer look

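Data outside the comparison of genes also held signal. Of 43747 transcript clusters without exactly 1 gene symbol, 1951 were called higher in the knockdown of *IGFBP6* and 1617 lower by limma. These are smaller shares than the 1753 higher and 1905 lower of 22411 genes. The largest rise among them was that of TC11003311.hg.1, at 18.91, 18.61 and 18.62 in the knockdown and at 10.65, 10.31 and 10.73 in the control, a log2 fold change of 8.15. The largest fall was that of TC0X002142.hg.1, at 5.05, 5.03 and 4.62 against 11.76, 12.1 and 12.05, a log2 fold change of -7.07. The arrays did not overlap for either cluster. Whether either cluster measures RNA of a gene reported above was not tested.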

How the results depend on the processing

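Under 22 alternative settings, the counts of called genes stayed within 1.5 times of 1753 higher and 1905 lower except where the fold threshold was changed, which by construction keeps fewer or more genes. At least 2 times left 712 higher and 819 lower, and no fold threshold gave 2899 and 3076. Leaving out 1 array at a time gave 1516 to 2035 higher and 1701 to 1986 lower, and a log2 fold change of *IGFBP6* of -0.69 to -0.52. Its change was below 1.5 times without knockdown replicate 2 (-0.52) or control replicate 2 (-0.58).

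Of 257 called genes of the text that were followed under the alternatives, 237 were called under every alternative that tested them. The changed fold thresholds were applied to the counts only, so single genes were not tested at a higher fold. *LSS*, *KDR*, *MRTFB*, *CNN2*, *MIR100*, *MIR181B2* and *MIRLET7F1* were among the others, and no gene followed in this way reversed. *CCN2* was one of 5 named genes that were not called and passed under an alternative, at 0.96 without knockdown replicate 1. With no moderation across genes, 3 genes of the TGF-beta family were called higher in place of 6.

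The replicate numbers were checked for pairing. Deviations of knockdown and control arrays of the same number correlated at 0.438, 0.067 and 0.2, and 2 of the 3 knockdown arrays correlated best with the control array of their own number. With 1 correlation at 0.067, pairing was not established. With the replicate block, 1760 genes were higher and 1914 lower, 1747 and 1898 of them the same genes, and the log2 fold change of *IGFBP6* was -0.62. Dim signals limit the folds of genes near the median of 5.02.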
